A study of Mus musculus with 13 samples.

Results

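The genes described here encode the subunits of the mitochondrial respiratory chain and a few proteins bound to it. Members were all probe sets of the array whose annotated gene symbol begins with Nduf, Uqcr, Atp5, Cox4, Cox5, Cox6, Cox7 or Cox8, or is Sdha, Sdhb, Sdhc or Sdhd. The rule found 179 probe sets with a single gene symbol among 45037 that are not controls, and they stand for 90 of 18193 genes. Another 10 probe sets carry a member's symbol together with that of another gene and were not used to name a gene. By complex, 34 genes belong to complex I, 4 to complex II, 8 to complex III, 18 to complex IV and 17 to complex V, the ATP synthase. The symbols also take in 9 associated factors, namely the complex I assembly factors Ndufaf1 to Ndufaf8 and the supercomplex factor Cox7a2l. Ndufa4 and Ndufa4l2 were counted with complex IV, where their proteins reside. Each gene is represented by its brightest probe set, and 84 of the 90 passed the filter on dim signal, which asks for a value above the array's own median in at least 3 of 13 arrays. The 6 that did not were Ndufb4, Cox4i2, Cox7a1, Cox7b2, Cox8b and Ndufa4l2.

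Untreated tissue of 13 mice was used, with 1 mouse and 1 array per sample. Primary medulloblastomas of Ptch1(+/-) mice (Ptch1 MB) gave 6 samples. They are hindbrain tumours that arise when Ptch1, the receptor restraining the hedgehog pathway, is inactivated. The normal samples came from wild-type mice. They were 3 samples of granule neuron precursor cells of the cerebellum at postnatal day 7 (P7 GNPC) and 4 of the dorsal brainstem before birth at E16.5 (E16.5 DBS). Whether and how the precursor cells were purified, the strain, the age of the tumour mice and the part of Ptch1 that was inactivated are not given in the sources used here. Age goes with tissue in the normal samples, and no batch is labelled, so a batch effect and a group effect cannot be told apart. The samples are bulk tissue, in which fewer cells of a type and less RNA per cell cannot be told apart. The comparisons asked how the respiratory chain genes of the tumours stood against each normal tissue, and how the normal tissues differed.

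Complexes I and II pass electrons from NADH and succinate to ubiquinone, complex III passes them on to cytochrome c, and complex IV hands them to oxygen. Complexes I, III and IV pump protons as they do so, and complex V makes ATP from the gradient. All subunits of complex II are encoded in the nucleus, while the core of each other complex is partly encoded by mitochondrial DNA, so that its assembly draws on both genomes. Dividing granule neuron precursors are known for a glycolytic metabolism that gives way to respiration as they become neurons.

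Promoters of the genes below that showed some of the largest differences are shown here with the motifs of factors long associated with nuclear genes for mitochondrial proteins. Each runs from 250 bases before to 50 after the start, from RefSeq on build GRCm38.p6, and is written 5′ to 3′ on the gene's own strand with matches in capitals. Ndufs4 (chr13:114388045-114388344, minus strand) holds 1 match to the YY1 core AAGATGGC. Ndufv3 (chr17:31519865-31520164, plus strand) holds no match to any of the motifs searched. Atp5g2 (chr15:102670998-102671297, minus strand) holds 2 overlapping matches to the NRF1 core GCGCANGCG, on opposite strands of the same stretch. Uqcrh (chr4:116075021-116075320, minus strand) holds 1 match to the ETS core CCGGAAG, read on the opposite strand.
Ndufs4: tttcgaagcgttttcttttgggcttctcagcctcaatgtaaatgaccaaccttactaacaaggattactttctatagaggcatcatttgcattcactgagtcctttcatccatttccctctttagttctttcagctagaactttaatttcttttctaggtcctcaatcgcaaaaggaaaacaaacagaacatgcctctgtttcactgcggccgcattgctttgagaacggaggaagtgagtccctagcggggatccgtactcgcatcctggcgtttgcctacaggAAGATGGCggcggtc
Ndufv3: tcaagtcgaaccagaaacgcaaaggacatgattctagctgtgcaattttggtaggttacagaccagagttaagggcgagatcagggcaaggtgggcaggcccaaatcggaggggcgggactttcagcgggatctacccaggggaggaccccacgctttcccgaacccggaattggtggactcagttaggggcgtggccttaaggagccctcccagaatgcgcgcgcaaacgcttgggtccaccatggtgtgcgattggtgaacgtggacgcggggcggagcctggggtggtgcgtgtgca
Atp5g2: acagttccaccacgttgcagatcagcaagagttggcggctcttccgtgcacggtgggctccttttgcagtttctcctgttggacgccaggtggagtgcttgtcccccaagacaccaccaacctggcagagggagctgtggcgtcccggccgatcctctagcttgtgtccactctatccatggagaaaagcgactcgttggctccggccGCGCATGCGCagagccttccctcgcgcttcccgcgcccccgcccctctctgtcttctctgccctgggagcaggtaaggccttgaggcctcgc
Uqcrh: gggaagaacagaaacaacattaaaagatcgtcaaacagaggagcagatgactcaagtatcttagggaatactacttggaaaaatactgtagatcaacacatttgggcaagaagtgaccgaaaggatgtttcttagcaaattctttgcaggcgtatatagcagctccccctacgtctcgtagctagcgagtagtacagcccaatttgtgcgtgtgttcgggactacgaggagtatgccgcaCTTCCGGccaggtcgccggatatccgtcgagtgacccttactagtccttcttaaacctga
Both strands were searched with exact letters, N standing for any base. Of the 90 members, 74 have an entry in the promoter table. The NRF1 core was found in 20 of them (27%), against 7.03% of all 27025 genes in the table. The ETS core was found in 19 (25.7%, against 9.93%) and the YY1 core in 10 (13.5%, against 3.19%). At least 1 of the motifs was in 41 member promoters (55.4%), against 17.8% of all genes. By group, the NRF1 core was in 7 of 15 complex V promoters, 6 of 31 of complex I and 1 of 12 of complex IV. It was in 2 of 3 of complex II, 2 of 5 of complex III and 2 of 8 of the associated factors. The YY1 core was in 6 of 31 of complex I, 3 of 15 of complex V and 1 of 8 of the associated factors. In complexes II, III and IV it was in 0. Among the members described below, Sdhd, Uqcr11, Cox6a1 and Atp5k are examples with the NRF1 and the ETS core, Sdha, Ndufs5, Atp5g3 and Ndufaf5 with the NRF1 core alone, and Sdhb, Atp5md, Cox6b1, Cox8a and Ndufaf1 with the ETS core alone. A match is a stretch of letters and says nothing of a factor's presence.

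The median intensity of an array was 91.3 to 117.5 units. Precision is limited by how few arrays each group has. Markers of granule neuron precursors summed to 57194.7 to 63791.9 units in tumours, 39617.4 to 43661.8 in the GNPC samples and 16043.8 to 20694.9 in DBS. The Hox and brainstem markers summed to 25836.8 to 35817 in DBS and to at most 1005.4 elsewhere. GNPC also held Purkinje cell markers (42188.1 to 50652.2 units, against 10421.9 to 11967.2 in DBS and 1088.1 to 12620.8 in tumours). Markers of astrocytes, oligodendrocytes, endothelium and meninges, given at the end, likewise summed higher in every GNPC sample than in any other sample. The GNPC samples thus held RNA of other cell types besides precursors. Pan-neuronal markers ran from 97882.9 to 108539 in DBS, 56661.8 to 61989.4 in GNPC and 14597.6 to 31905.6 in tumours, and proliferation markers from 3855.5 to 6486.3, 18042.7 to 23550.3 and 38143.2 to 47553.5. Single markers went against the sum of their list. En2, a precursor marker, was lower in tumours than in GNPC, and the pan-neuronal Rbfox3 was higher in GNPC than in DBS. A single library stood apart in RNA quality. In DBS 2 the log2 ratio of 3′ to 5′ signal, averaged over Gapdh and beta-actin, was 2.43, against 1.23 to 1.70 in the other DBS samples, 1.11 to 1.19 in GNPC and 1.33 to 1.59 in tumours. Its mean level of the 84 members, as a log2 deviation from each gene's mean over all samples, was -0.27, against -0.04 to 0.08 in the other DBS samples. The part of these differences in the results below was not tested.

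The respiratory chain genes were bright and, on their brightest probe sets, differed less between groups than all genes tested. The members' median level stood at percentile 94.3 of all genes tested, and 50 of 84 were in the top decile. Within the tumours the median gene's SD over samples was 0.18 on the log2 scale for members and 0.27 for all genes, within GNPC 0.11 and 0.15, and within DBS 0.20 and 0.21. The median size of a member's difference, whatever its sign, was 0.19 on the log2 scale in tumours against GNPC, where it was 0.44 over all genes. It was 0.30 between tumours and DBS (0.71 over all genes) and 0.24 between GNPC and DBS (0.44 over all genes). All genes were not matched to the members in level, and whether other genes as bright differed as little was not tested.

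Between tumours and GNPC, 7 of 84 members were higher in the tumours, 12 were lower and 65 were not called by limma at a Benjamini-Hochberg adjusted p under 0.05. Over all 12270 genes tested 22.8% were higher and 26.6% lower, so that 22.6% of members were called against 49.4% of genes. No member was called by limma with a difference of at least 2-fold, against 6.59% of genes higher and 14.2% lower. None reached 2-fold at any p on its brightest probe set. The 95% interval of the difference lay within 2-fold either way for 74 members (88.1%), against 59.2% of genes. The samples of both groups did not overlap for 20 members (23.8%), against 44.9% of genes. The median difference was -0.07 over members and -0.03 over all genes, with members from -0.83 to 0.61. The split between higher and lower depended on the scaling of the arrays. With arrays set to equal medians, which moved the median of all genes from -0.03 to 0.21, 17 members were higher and 2 lower, beside 34.9% and 18.9% of all genes. Quantile normalisation went the other way, with 5 higher and 26 lower, beside 25.1% and 25.1% of all genes. Both counts also leaned on single GNPC libraries, 7 higher becoming 3 without GNPC 2 or without GNPC 3, and 12 lower becoming 5 without GNPC 1, 5 without GNPC 2 and 7 without GNPC 3.

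Between tumours and DBS, 17 members were higher in the tumours and 19 lower (42.9% called), against 34.9% and 35.5% of all genes (70.4% called). With at least 2-fold, 4 were higher, namely Ndufs5, Ndufa2, Atp5g2 and Ndufaf1, and 1 was lower, Ndufv3, against 15.5% and 20.9% of all genes. The interval lay within 2-fold for 72 members (85.7%), against 45.5% of genes. Groups did not overlap for 20 members (23.8%), against 56.1%. The median difference was -0.07, against 0.00 over all genes, and members ran from -1.03 to 2.76. Scaled to the same median the lower members were 10, with 31.1% of all genes lower. Plain probe sets are those without the suffix _a_at, _s_at or _x_at, which marks a possible match to several transcripts or genes. Alone they gave 17 higher and 11 lower with a median of 0.09, so that the sign of the median turned.

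Between GNPC and DBS, 15 members were higher in GNPC and 11 lower (31% called), against 23.1% and 21% of all genes (44.1% called). With at least 2-fold, 2 were higher, Ndufs5 and Ndufs4, and none was lower, against 8.73% and 9.68% of all genes by limma. No member fell short of DBS by 2-fold at any p on its brightest probe set. The interval lay within 2-fold for 73 members (86.9%), against 57.3%, and groups did not overlap for 30 (35.7%), against 55.9%. The median difference was -0.01, against 0.04 over all genes, and members ran from -0.84 to 3.44. Scaled to the same median, 7 members were higher and 18 lower, beside 17% and 24.9% of all genes. The other way, quantile normalisation gave 19 higher and 3 lower (median 0.08), beside 21.6% and 22.8%, and plain probe sets 15 and 2 (median 0.25), beside 23.4% and 20.5%. Single libraries mattered here too. The higher count fell to 9 without GNPC 1, 8 without GNPC 3 and 9 without DBS 2, and the lower count to 4 without GNPC 2, 4 without GNPC 3, 7 without DBS 3 and 5 without DBS 4.

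**Figure D1:**
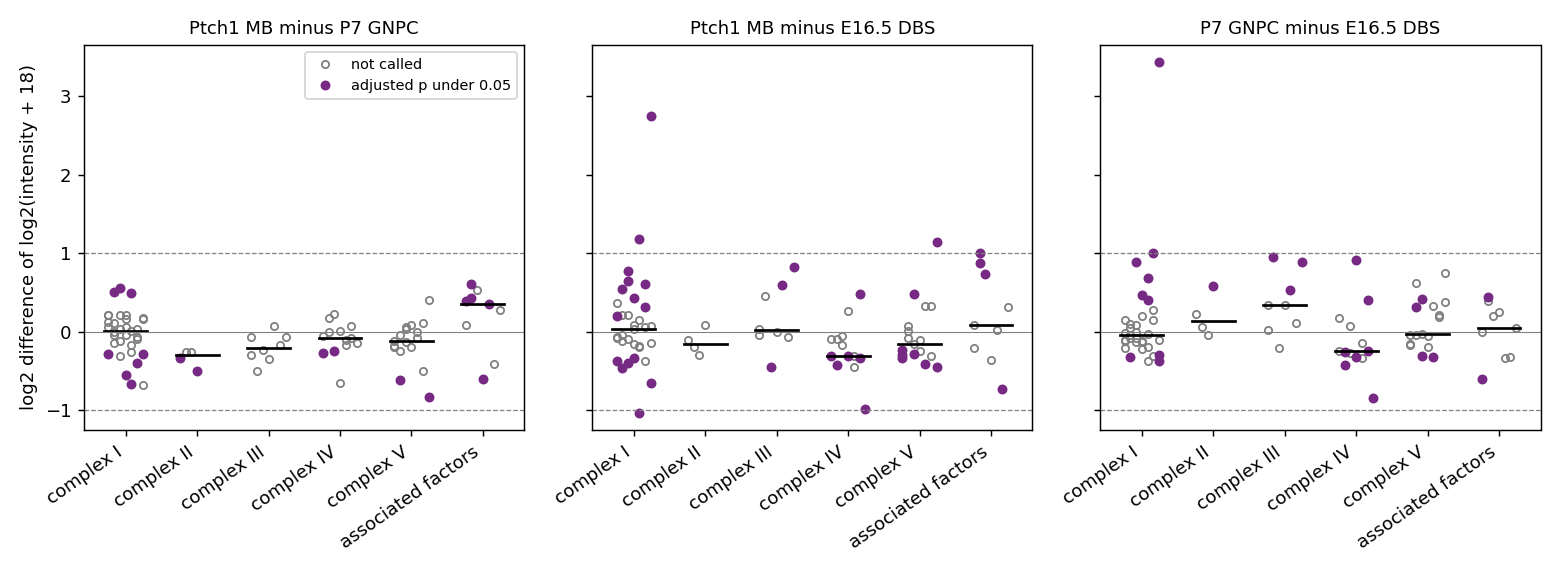
Difference between groups for each of the 84 members tested, on the log2(intensity + 18) scale, by complex; filled points have an adjusted p under 0.05, bars are medians and dashed lines mark 2-fold. Between tumours and GNPC all points lie between -0.83 and 0.61, and in the other comparisons few lie beyond the dashed lines.

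**Figure D2:**
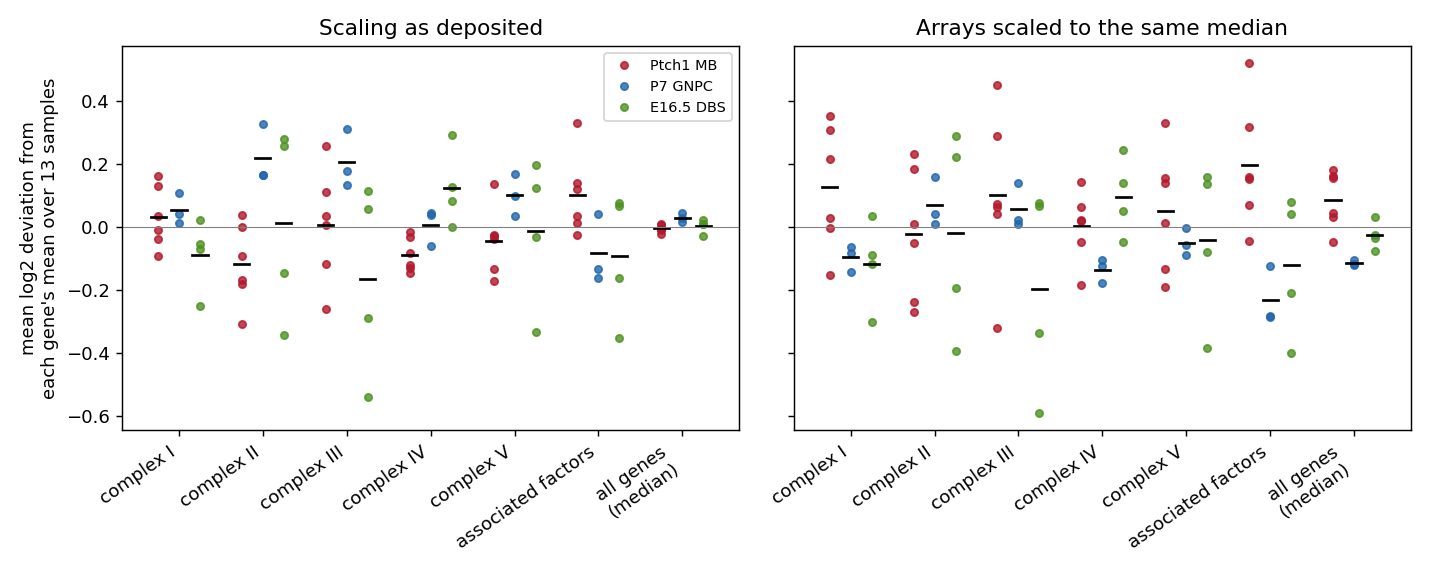
Mean log2 deviation of each complex's members from their gene means over 13 samples, 1 point per sample, with group means as bars, on the deposited scale (left) and with equal array medians (right). The lowest DBS point in every group of members is DBS 2, and the group means of tumours and GNPC trade places for complexes I, III, IV and V between the panels.

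Complex I had called members on both sides, 3 higher and 5 lower of 33 in tumours against GNPC, 9 and 6 against DBS in tumours, and 6 and 3 against DBS in GNPC. These are 24.2%, 45.5% and 27.3% called, against 49.4%, 70.4% and 44.1% of all genes. The median differences were 0.01, 0.04 and -0.04. With arrays at the same median the counts were 10 higher and 1 lower, 9 and 4, and 5 and 6, with medians of 0.26, 0.16 and -0.16. Over all genes that scaling gave medians of 0.21, 0.12 and -0.08. With quantile normalisation they were 2 and 7, 9 and 6, and 8 and 0, with medians of -0.09, 0.05 and 0.06. On probe sets with the plain suffix _at, which measure 24 of these genes, they were 0 and 2, 6 and 2, and 8 and 1, with medians of -0.10, 0.19 and 0.33. Without DBS 2 the median between tumours and DBS was -0.05. The sign of each of the 3 medians thus differed between at least a pair of these settings.

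Ndufa2, a small accessory subunit of complex I, had the most regular order of the groups. Its intensity was 10083.2, 10802 and 11237.9 in the lowest, median and highest tumour, 8121.1, 7141.3 and 7789.1 in the GNPC samples, and 5380.5, 4757.3, 4985.5 and 3989.4 in the DBS samples, in the order of their numbers. Every tumour was above every GNPC sample and every GNPC sample above every DBS sample. The tumours were 1.40-fold above GNPC (log2 difference 0.49 ± 0.09 SE, adjusted p = 0.000471, limma) and 2.26-fold above DBS (1.18 ± 0.08, adjusted p = 1.06e-08). GNPC were 1.61-fold above DBS (0.69 ± 0.10, adjusted p = 6.34e-05). These calls held in all alternatives run, with tumours above DBS by 1.09 to 1.30. Plain probe sets were not among them, since Ndufa2 has none, and the mean of probe sets was that of 1 probe set.

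Ndufs5, another accessory subunit, carried the largest difference of any member, and its probe sets disagreed. It read 588.6, 705 and 1088.1 in the lowest, median and highest tumour, 773.5, 1533.2 and 1418.7 in GNPC, and 146.6, 99.1, 48.3 and 103.4 in DBS. All 4 DBS samples lay far below both other groups, which overlapped each other through GNPC 1. The log2 difference was 2.76 ± 0.25 between tumours and DBS (6.75-fold, adjusted p = 1.64e-07, limma) and 3.44 ± 0.30 between GNPC and DBS (10.8-fold, adjusted p = 7.13e-07). The probe set that Ndufs5 shares in the annotation with the pseudogene Ndufs5-ps averaged 1611 ± 185 (SD, n = 6) in tumours, 2346 ± 176 (n = 3) in GNPC and 1708 ± 602 (n = 4) in DBS. On that probe set the differences were -0.02 and 0.52. Whether Ndufs5 transcripts or 1 probe set changed was not tested.

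Ndufv3, an accessory subunit of the module that takes up NADH, ran the other way. It read 2083.1, 2658.2 and 2943 in the lowest, median and highest tumour, 3359.7, 4042.7 and 5049.7 in GNPC, and 5664.1, 4871.6, 5376.5 and 5291.2 in DBS. All tumours lay below all normal samples, and GNPC 3 reached into the DBS range. The tumours fell by 0.66 ± 0.13 on the log2 scale against GNPC (adjusted p = 0.000965, limma) and by 1.03 ± 0.12 against DBS (2.05-fold, adjusted p = 2.9e-06). Both calls held in all alternatives run, which did not include plain probe sets, since Ndufv3 has none. Its mean of probe sets was likewise that of 1 probe set. Between GNPC and DBS the difference was -0.37 (adjusted p = 0.0525).

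Ndufs4, a subunit needed for the stability of complex I and a gene of Leigh syndrome, was highest in GNPC. It read 2065.1, 2880.55 and 3510.8 in the lowest, median and highest tumour, 3684.6, 3807.9 and 3618.7 in GNPC, and 2202, 1487.2, 2149.8 and 1632.1 in DBS. GNPC stood above all other samples, and tumours and DBS overlapped. GNPC exceeded DBS (log2 difference 1.0 ± 0.17, adjusted p = 0.000272, limma) and tumours 1.52-fold above DBS (0.61 ± 0.14, adjusted p = 0.00147). The tumours fell by 0.39 ± 0.16 against GNPC (adjusted p = 0.0482), a call kept in 5 of 15 alternatives. The gene's other probe sets gave -0.38, -0.03 and 1.57 between tumours and DBS, the first and the last called in opposite directions.

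Ndufa12 and Ndufb8 complete the complex I genes that led a direction. Ndufa12, an accessory subunit, read 7783.4, 8956.25 and 10059.7 in the lowest, median and highest tumour, 5517.7, 5284.5 and 7709.4 in GNPC, and 5455.6, 6606.9, 5293.9 and 5585.6 in DBS. Every tumour was above every normal sample, with differences of 0.56 ± 0.12 (adjusted p = 0.00149, limma) and 0.65 ± 0.11 (adjusted p = 9.38e-05), both kept in all alternatives run. These did not include plain probe sets, since Ndufa12 has none past the filter. Ndufb8, a membrane arm subunit often used as a marker of assembled complex I, fell in the tumours by 0.29 against GNPC (adjusted p = 0.0355) and by 0.66 against DBS (adjusted p = 2.35e-05). It read 4310.9, 4942.2 and 5784.2 in the lowest, median and highest tumour, 6631.2, 5807.8 and 5639.3 in GNPC, and 7402.6, 8177.1, 6947.4 and 8671.4 in DBS. Tumours and GNPC overlapped, and all DBS samples lay above both.

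**Figure D3:**
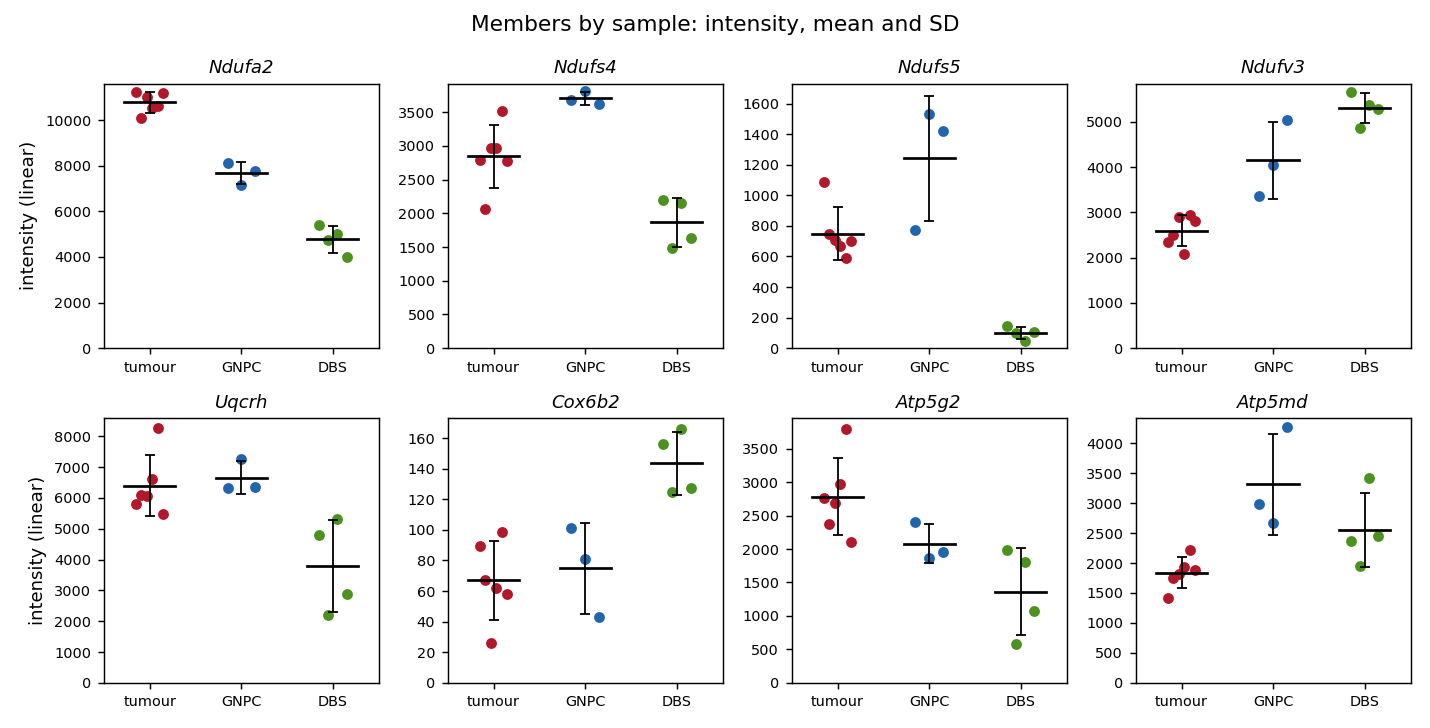
Linear intensity of 8 members in every sample, with mean and SD of 6 tumours, 3 GNPC and 4 DBS samples; each panel has its own axis from 0. Ndufa2 falls from tumours to GNPC to DBS, Ndufv3 rises in that order, and the DBS samples of Uqcrh and Atp5g2 spread widely.

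Complex II, whose subunits also form the succinate dehydrogenase of the citric acid cycle, had 2 of 4 genes lower in tumours than in GNPC and none higher. That is 50% called, near the 49.4% of all genes. Sdha, the flavoprotein that oxidises succinate, read 4000.4, 4623.8 and 6163.2 in the lowest, median and highest tumour and 5842.2, 6281.7 and 5762.8 in GNPC. Tumour 3 reached into the GNPC range, and the tumours fell by 0.34 ± 0.13 (adjusted p = 0.0463, limma), a call kept in 5 of 15 alternatives. Sdhd, a membrane anchor, read 1725.3, 2178.95 and 2390.7 in the lowest, median and highest tumour, 3101.9, 3023.5 and 2840.4 in GNPC, and 2732.8, 1319.4, 2502.6 and 1729.6 in DBS. All GNPC samples lay above all others. The tumours fell by 0.50 ± 0.19 against GNPC (adjusted p = 0.0418), and GNPC were 0.58 ± 0.20 above DBS (adjusted p = 0.0316). These calls were kept in 7 of 15 and 7 of 13 alternatives. Sdhb, the iron-sulphur subunit, and Sdhc, the other anchor, differed between tumours and GNPC by -0.25 (adjusted p = 0.0512) and -0.26 (adjusted p = 0.28). Between tumours and DBS limma called 0 of the 4, and 0 at an unadjusted p under 0.05, but 2 as lower without DBS 2. Scaled to the same median 0 were called in any comparison, the median between tumours and GNPC being -0.05 instead of -0.30.

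Complex III had no member of 8 called by limma between tumours and GNPC (1 lower at an unadjusted p under 0.05), 2 higher and 1 lower in tumours against DBS, and 3 higher and none lower between GNPC and DBS. These are 0%, 37.5% and 37.5% called, against 49.4%, 70.4% and 44.1% of all genes. The medians were -0.20, 0.02 and 0.34. The first of these was 0.04 with arrays at the same median, the middle one was -0.14 without DBS 2 and 0.46 on the 5 genes with plain probe sets, and the last was 0.15 without DBS 2. With quantile normalisation 3 were lower in tumours than in GNPC. Uqcrh, the hinge protein at the cytochrome c docking site, read 5490.9, 6077.75 and 8275.5 in the lowest, median and highest tumour, 6329.3, 7269.2 and 6345.6 in GNPC, and 4780.3, 2211.3, 5313.8 and 2867.5 in DBS. All DBS samples lay below the rest, DBS 2 and DBS 4 by the most. It was 0.83 ± 0.20 higher in tumours than in DBS (adjusted p = 0.00207, limma) and 0.89 ± 0.24 higher in GNPC (adjusted p = 0.00758). Uqcr11, the smallest subunit, was 0.95 ± 0.26 higher in GNPC than in DBS (adjusted p = 0.00789), with 4947.4, 3666.5 and 3660.7 against 2972.4, 1527.3, 2848.8 and 1451.5. These groups did not overlap, and DBS 2 and DBS 4 were again low. Uqcrb, the ubiquinone-binding accessory protein, fell in tumours by 0.44 ± 0.10 against DBS (adjusted p = 0.000807), all 6 tumours (13937.6 to 20887) lying below all DBS samples (22837.1 to 26956.5).

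Complex IV had more called members below DBS than above it, though for GNPC this did not hold in every setting. Of 13 tested, 1 was higher and 5 lower in tumours than in DBS (median -0.31), and 2 were higher and 5 lower in GNPC than in DBS (median -0.25). These are 46.2% and 53.8% called, against 70.4% and 44.1% of all genes. Between tumours and GNPC none was higher and 2 were lower (15.4% called, against 49.4% of all genes, median -0.08). With arrays at the same median that last value was 0.16 with 1 higher and none lower, while the medians against DBS were -0.18 and -0.37. Between GNPC and DBS, quantile normalisation gave 3 higher and 2 lower (median -0.08), and plain probe sets, on 11 genes, 1 and 1 (median 0.05). In tumours against DBS these alternatives gave 1 and 5, and 1 and 4. Without DBS 2 the counts between GNPC and DBS were 0 higher and 4 lower.

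Several complex IV subunits come in tissue isoforms, and most forms known from other tissues were dim here. The heart and muscle forms Cox7a1 (41.1 to 113.5 over all 13 samples) and Cox8b (2.3 to 30.9), the lung form Cox4i2 (6.3 to 78) and the Ndufa4 paralogue Ndufa4l2 (12.4 to 88.4) did not pass the filter. Cox6a2, the muscle form of subunit 6a, passed it, at 9.1 to 175.6, and was not called in any comparison, with differences of -0.17, -0.31 and -0.14. Cox8c, known from testis, ran from 145.3 to 416.5, above the median of every array, and was not called either (-0.11, -0.45 and -0.34). Cox6b2, also known from testis, was the exception. It read 26.1, 64.45 and 98.9 in the lowest, median and highest tumour, 101.4, 80.8 and 42.8 in GNPC, and 156.2, 124.5, 165.9 and 127.5 in DBS. All DBS samples were above all others, the tumours being lower by 0.98 ± 0.27 (adjusted p = 0.00465, limma) and GNPC by 0.84 ± 0.32 (adjusted p = 0.0453, kept in 6 of 13 alternatives).

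Among the ubiquitous isoforms Cox4i1, the regulatory subunit 4, fell by 0.27 ± 0.09 in tumours against GNPC (adjusted p = 0.0256, limma). The tumours ran from 11086.6 to 13914.5 and GNPC from 13864.7 to 15661.9, overlapping by a single tumour. Cox6b1, which bridges the dimer, read 14681.6 to 16473 in tumours, 16240.9 to 16730.3 in GNPC and 18555.3 to 21057.5 in DBS. It fell by 0.33 ± 0.06 in tumours (adjusted p = 0.000137) and by 0.25 ± 0.07 in GNPC (adjusted p = 0.00907) against DBS, but the GNPC difference was 0.01 with quantile normalisation. Cox6a1 fell in the same way, by 0.31 and 0.33 (adjusted p = 0.00394 and 0.0155), the GNPC difference being 0.03 on the mean of its probe sets. Cox7a2, a liver-type subunit, fell in GNPC against DBS by 0.26 (adjusted p = 0.0187), and its plain probe set gave 0.05. Ndufa4 rose against DBS by 0.48 in tumours (adjusted p = 0.00318) and 0.40 in GNPC (adjusted p = 0.0399). Cox8a, the liver-type subunit 8, was 0.91 ± 0.35 higher in GNPC than in DBS (adjusted p = 0.0449), with 1769.2, 949.4 and 1104.5 against 1009, 265.3, 809.9 and 781.9. DBS 1 reached into the GNPC range, DBS 2 was the lowest by far, and the call was kept in 5 of 13 alternatives.

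Complex V had 2 members lower and none higher of 17 in tumours against GNPC, 2 higher and 6 lower in tumours against DBS, and 2 on each side between GNPC and DBS, with medians of -0.12, -0.16 and -0.03. These are 11.8%, 47.1% and 23.5% called, against 49.4%, 70.4% and 44.1% of all genes. With arrays at the same median the higher and lower counts were 0 and 1, 3 and 1, and 0 and 4, with medians of 0.13, -0.03 and -0.15. Quantile normalisation gave 9 lower in the first comparison, and 3 higher and none lower in the last with a median of 0.21. On plain probe sets, for 14 genes, the medians against DBS turned, with 5 higher and 4 lower in tumours (median 0.17) and 4 higher and none lower in GNPC (median 0.32). The ring of subunit c, which turns as protons pass, is made from 3 genes that encode the same mature protein, and these genes differed. Atp5g2 read 2109.7, 2723 and 3791.6 in the lowest, median and highest tumour, 2409.3, 1871.4 and 1955.5 in GNPC, and 1983.4, 585.6, 1803.3 and 1066.5 in DBS. All tumours were above all DBS samples, of which DBS 2 and DBS 4 were the lowest. The difference between tumours and DBS was 1.15 ± 0.27 (2.22-fold, adjusted p = 0.00156, limma), and 0.80 to 1.38 over the alternatives. Atp5g3 fell in tumours by 0.33 ± 0.07 against DBS (adjusted p = 0.000374), with 13447.2 to 15461.8 below 16972 to 20432.8. Atp5g1 was not called in any comparison, with -0.50 (adjusted p = 0.0755), -0.31 and 0.19.

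Atp5md, a small membrane subunit also known as DAPIT that is needed for dimers of the synthase, had the largest fall between tumours and GNPC. It read 1414.7, 1853.25 and 2213.6 in the lowest, median and highest tumour, 2987.5, 2674 and 4271 in GNPC, and 2373.1, 1953.2, 3415.5 and 2453.9 in DBS. All tumours were below all GNPC samples and, apart from the highest, below all DBS samples. The tumours fell by 0.83 ± 0.18 against GNPC (1.77-fold, adjusted p = 0.00174, limma), a call kept in all 15 alternatives, and by 0.45 ± 0.17 against DBS (adjusted p = 0.0248). Its only probe set with a single symbol is plain, so the mean of probe sets and plain probe sets could not change these differences. Atp5j, coupling factor 6 of the stalk, was higher in tumours (0.48, adjusted p = 0.00104) and GNPC (0.42, adjusted p = 0.0151) than in DBS. Atp5k, subunit e of the dimer interface, fell in tumours (by 0.41, adjusted p = 0.00232) and GNPC (by 0.32, adjusted p = 0.0416) against DBS. Its plain probe set gave -0.01 and 0.06.

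The associated factors were the group with the highest median in tumours against GNPC, 0.36, with 4 of 9 higher and 1 lower. That is 55.6% called, near the 49.4% of all genes. With arrays at the same median 6 were higher and none lower, beside 34.9% and 18.9% of all genes, whose median was then 0.21. Ndufaf1, which builds an early intermediate of complex I, read 781.2, 909.45 and 984.4 in the lowest, median and highest tumour, 950.3, 439 and 470.7 in GNPC, and 534.2, 331.8, 471.9 and 440.3 in DBS. GNPC 1 lay within the tumours and the other GNPC samples with DBS. It was 1.0 ± 0.19 higher in tumours than in DBS (adjusted p = 0.000284, limma) and 0.61 ± 0.21 higher than in GNPC (adjusted p = 0.0269), the latter not called without GNPC 2 or GNPC 3. Ndufaf8, which stabilises Ndufaf5, read 1251.8, 1461.45 and 1893.6 in the lowest, median and highest tumour, 1080.4, 992.8 and 1206 in GNPC, and 839.6, 619.8, 862.6 and 893.8 in DBS. On this probe set groups stood in that order with no overlap, with differences of 0.43 (adjusted p = 0.0245), 0.88 (adjusted p = 3.61e-05) and 0.44 (adjusted p = 0.0349). The middle call was kept in all 16 alternatives, the first in 11 of 15 and the last in 7 of 13. Both of the latter were lost on the mean of the gene's probe sets and on plain probe sets, among others.

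The remaining factors were not of 1 direction. Ndufaf5, a hydroxylase of the core subunit Ndufs7 and the client of Ndufaf8, fell in tumours by 0.73 ± 0.18 against DBS (adjusted p = 0.00188, limma). It read 623 to 895 in tumours and 1699.2, 852.3, 1465.6 and 1133.9 in DBS, the low DBS 2 lying within the tumours. Ndufaf3, an early assembly factor, fell in tumours by 0.60 ± 0.19 against GNPC (adjusted p = 0.0179), with 524.7 to 762.7 below 900 to 1019.1. Cox7a2l, which links complexes III and IV in supercomplexes, rose in tumours by 0.39 ± 0.13 against GNPC (adjusted p = 0.0216). GNPC were below DBS by 0.60 ± 0.14 (adjusted p = 0.00315), with 7568.8, 6468 and 7195.3 against 9557.6 to 11705.

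Of the 37 members named by rule, 13, 20 and 17 were called for tumours over GNPC, for tumours over DBS and for GNPC over DBS. The call was kept in every alternative run for the gene for 4, 17 and 5 of them. In the first comparison these were Ndufa12, Ndufa2, Ndufv3 and Atp5md, and in the last Ndufa2, Ndufs4, Ndufs5, Uqcr11 and Cox7a2l. The probe set that Ndufs5 shares with Ndufs5-ps, whose differences from DBS were far smaller, was not among the alternatives. In the middle one Cox6a1, Atp5k and Atp5md lost theirs in at least 1 alternative. Of the genes that kept a call, Ndufa2, Ndufa12, Ndufv3, Ndufb8, Ndufaf5 and Cox7a2l have no plain probe set past the filter. The alternative of plain probe sets was not run for them. Several genes that kept a call, such as Ndufa2, Ndufs5, Ndufv3, Uqcr11, Atp5md and Ndufaf1, have 1 probe set past the filter. For these the mean of probe sets used the same probe set, as did plain probe sets where it is plain. Such alternatives could not change their difference.

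Different probe sets of a member often gave different answers, and the kind of probe set went with the direction. Of 47 members with at least 2 probe sets past the filter, all of a gene's probe sets had the same sign for 26 (55.3%) in tumours against GNPC, 23 (48.9%) in tumours against DBS and 16 (34%) in GNPC against DBS. Over all genes these shares came to 71.8%, 72.6% and 62.5%. Between tumours and DBS, Atp5a1, Cox5b, Ndufs4 and Uqcrc2 had probe sets called in opposite directions, and no member did in the other comparisons. Uqcrc2, a core protein of complex III, differed by 0.60 on 1 probe set (8394 ± 534 SD in tumours, 5702 ± 1725 in DBS) and by -0.44 on another (5318 ± 340 and 7236 ± 907). Atp5a1, the alpha subunit of the catalytic head, gave -0.29 and 0.25 on its brightest pair. Cox5b, the zinc-binding subunit of complex IV, gave -0.25 and 0.34 on the pair that was called.

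Affymetrix marks with the suffixes _a_at, _s_at and _x_at probe sets that may match several transcripts or genes. For 36 members with both kinds, the plain kind gave the higher GNPC to DBS difference in 29 (80.6%, against 57% of all genes with both kinds), by a median of 0.34. Between tumours and DBS it was higher in 26 (72.2%, against 50.5%) and between tumours and GNPC in 8 (22.2%, against 39.1%), with medians of 0.12 and -0.17. These genes were Ndufb7 and Atp5pb among others, which differed by 1.07 and 0.67 between tumours and DBS on the plain kind and by 0.31 and -0.16 on the other. They are named after their values were seen. The cause was not tested.

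**Figure D4:**
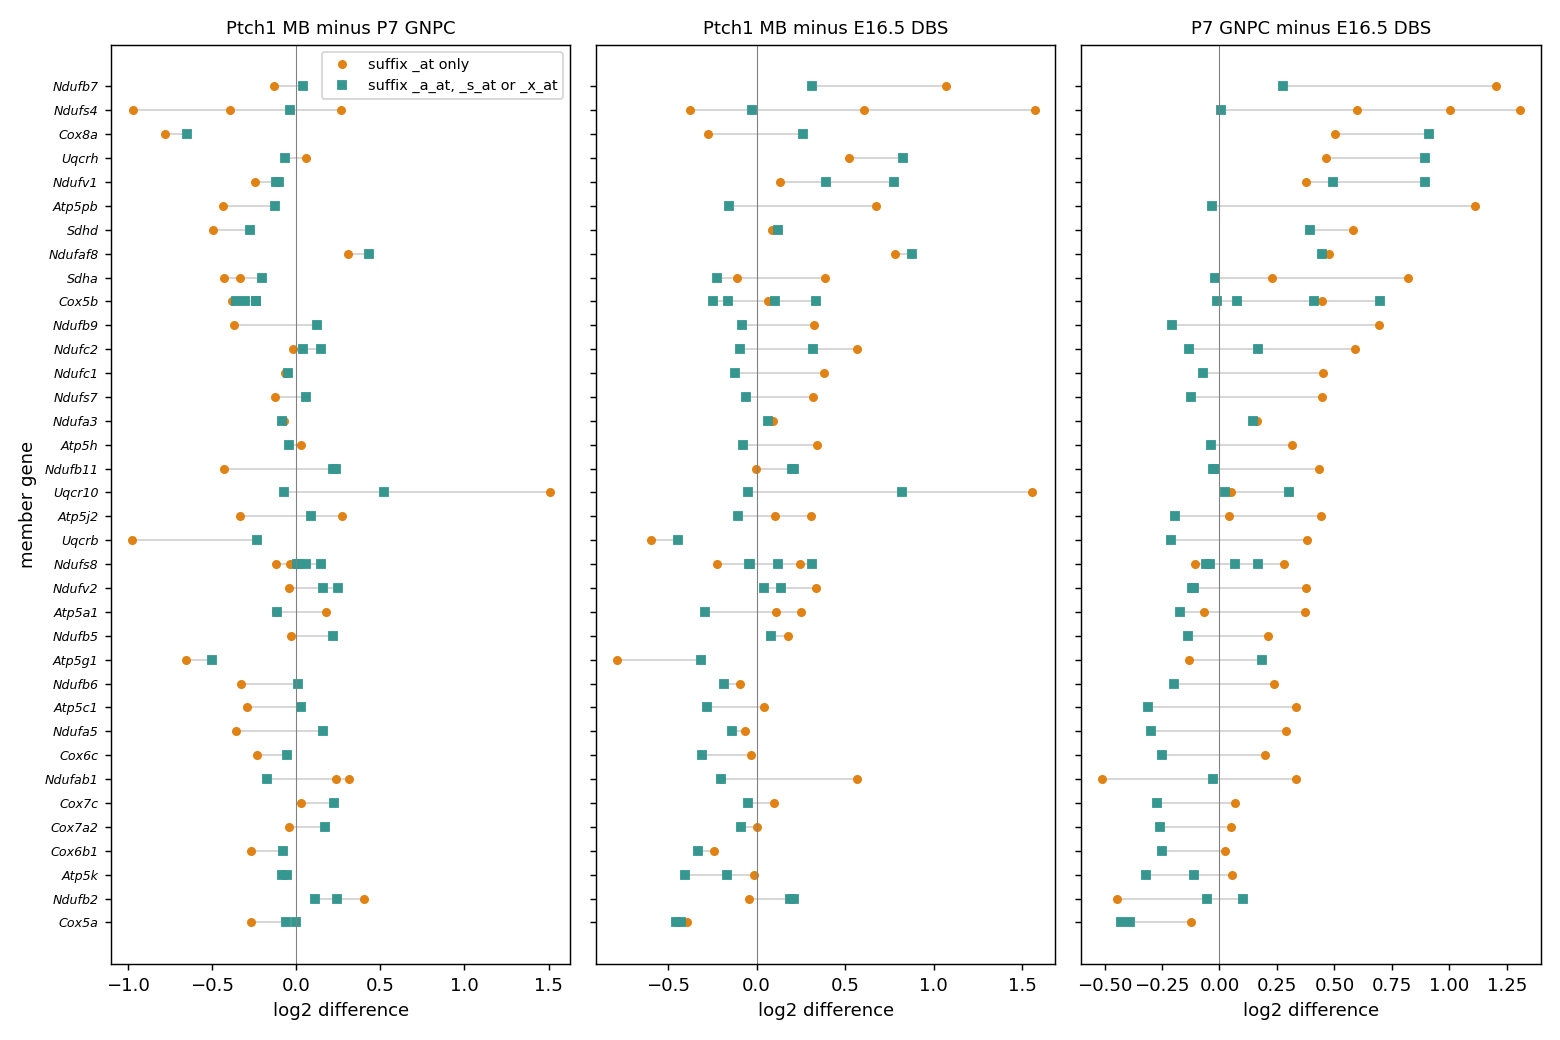
Log2 difference on every probe set past the filter of the 36 members that have both a plain probe set (circles) and one of the suffixes _a_at, _s_at or _x_at (squares), 1 line per gene, ordered by the mean difference between GNPC and DBS. In the right panel the circles lie to the right of the squares for most genes, 29 of 36 on the mean of each kind.

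Genes around the respiratory chain were read from lists of pathway genes, and the shares of all genes called apply to each list. These were 22.8% higher and 26.6% lower in tumours against GNPC. Against DBS they were 34.9% and 35.5% in tumours and 23.1% and 21% in GNPC. Of the subunits encoded by mitochondrial DNA only ND5, of complex I, was named on the array. It read 3123.6 to 9492.8 in tumours, 8814.3 to 10369.9 in GNPC and 12870.2 to 14252.9 in DBS. Tumours were lower than GNPC by 0.72 ± 0.25 (adjusted p = 0.0243, limma) and lower than DBS by 1.23 ± 0.22 (adjusted p = 0.000177), with a wide spread among tumours, and with arrays at the same median the first was not called (-0.48). Of 17 genes of electron carriers (ubiquinone synthesis, the c cytochromes and electron transfer flavoprotein) 3 were higher and 3 lower in tumours against GNPC, 8 and 2 in tumours against DBS, and 8 and 1 between GNPC and DBS, with medians of -0.05, 0.19 and 0.49 beside -0.03, 0.00 and 0.04 over all genes. Coq8a, a kinase-like protein of ubiquinone synthesis, was 1.15 higher in tumours than in DBS, and Etfb, a subunit of the flavoprotein, 0.97 higher in GNPC than in DBS. Coq10a fell in tumours by 0.83 against GNPC.

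Assembly genes outside the members went in both directions. Of 24 for complexes III and IV, 2 were higher and 1 lower in tumours against GNPC, 10 and 5 in tumours against DBS, and 6 and 4 between GNPC and DBS, with medians of 0.07, 0.10 and 0.16. Scaled to the same median the first counts were 8 and 1, beside 34.9% and 18.9% of all genes. Cox17, the copper chaperone of complex IV, rose in tumours by 0.75 against GNPC, and Pet100, a complex IV biogenesis factor, by 1.62 against DBS. Ttc19, which clears fragments from complex III, fell in tumours by 0.80 against GNPC and by 1.88 against DBS. Of 13 for complexes I, II and V, 1 was higher and none lower, 5 and 3, and 3 and 1 in the same order, with medians of -0.01, 0.04 and -0.01. Sdhaf3, an assembly factor of complex II, rose in tumours by 1.20 against GNPC, while Sdhaf1, another, rose by 1.21 in tumours and by 1.35 in GNPC against DBS.

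Of 16 citric acid cycle genes, 1 was higher and 7 lower in tumours than in GNPC, beside 22.8% and 26.6% of all genes. Against DBS 3 were higher and 7 lower in tumours (34.9% and 35.5% of all genes), and 4 and 3 in GNPC (23.1% and 21%). The medians were -0.27, -0.15 and 0.01. With arrays at the same median the first counts were 4 and 2, beside 34.9% and 18.9% of all genes. Ogdh, a subunit of the 2-oxoglutarate dehydrogenase, fell in tumours by 1.03 against GNPC (adjusted p = 0.000144, limma), and Dlat, of the pyruvate dehydrogenase, by 0.84 against GNPC (adjusted p = 2.55e-05) and by 1.54 against DBS (adjusted p = 4.98e-09). Suclg2, of the succinyl-CoA ligase, rose by 0.69 and 1.30. Of 11 carriers and redox genes, 0 were higher and 3 lower, 2 and 5, and 3 and 5 in the order of the comparisons, with medians of -0.18, -0.14 and -0.10. At an unadjusted p under 0.05 the first counts were 0 and 4. With arrays at the same median they were 3 and 0, beside 34.9% and 18.9% of all genes. Txnrd2, the mitochondrial thioredoxin reductase, was the largest fall against DBS, by 1.36 in tumours.

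The regulators of mitochondrial biogenesis held genes with large differences in both directions. Of 20, 9 were higher and 3 lower in tumours than in GNPC, beside 22.8% and 26.6% of all genes. Against DBS 12 were higher and 3 lower in tumours (34.9% and 35.5% of all genes), and 7 and 3 in GNPC (23.1% and 21%). The last counts became 2 and 4 with arrays at the same median (17% and 24.9% of all genes). Quantile normalisation made them 4 and 4 (21.6% and 22.8%). The medians were 0.40, 0.45 and 0.12. Mycn, a hedgehog-induced oncogene of these cells, averaged 10022 ± 1070 (SD, n = 6) in tumours, 3319 ± 713 (n = 3) in GNPC and 1157 ± 57 (n = 4) in DBS. It was 1.60 above GNPC (adjusted p = 5.37e-07, limma) and 3.09 above DBS (adjusted p = 2.82e-11) on the log2 scale. Esrrg, a nuclear receptor that drives oxidative genes, averaged 135 ± 56 in tumours, 2023 ± 160 in GNPC and 2337 ± 464 in DBS, a fall by 3.81 and 4.00 on the log2 scale. Ppargc1a, the coactivator PGC-1alpha, named after its values were seen, read 98.7 to 256.7 in tumours, 838.8 to 1347.5 in GNPC and 1416.4 to 2343.9 in DBS, and in tumours it fell by 2.77 against GNPC and fell by 3.53 against DBS. Tfam, the packaging factor of mitochondrial DNA and likewise named afterwards, rose in tumours by 0.63 against GNPC and by 1.08 against DBS. The respiratory chain members, beside these, differed by a median of -0.07 in both tumour comparisons. Pan-neuronal and proliferation markers, given above, also differed between the groups, and their part in these values was not tested.

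The mitochondrial ribosome, which translates the subunits encoded by mitochondrial DNA, stood against this. Of its 76 protein genes, 31 were higher and 0 lower in tumours than in GNPC by limma (35 and 0 at an unadjusted p under 0.05), beside 22.8% and 26.6% of all genes. In tumours against DBS 58 were higher and 1 lower, beside 34.9% and 35.5%, and in GNPC against DBS 26 and 3, beside 23.1% and 21%. The medians were 0.34, 0.58 and 0.28, beside -0.03, 0.00 and 0.04 over all genes. With arrays at the same median the counts were 49 and 0, 61 and 1, and 15 and 4, and with quantile normalisation 32 and 0, 57 and 1, and 26 and 3. Mrpl14 led the rises against GNPC (1.18), Mrpl2 in tumours against DBS (1.45) and Mrps10 in GNPC against DBS (1.13), while Mrps6 fell in tumours by 0.65 against DBS and Mrpl52 in GNPC by 0.66 against DBS. Of 20 genes of import and mitochondrial structure, 8 were higher and 5 lower, 13 and 5, and 4 and 3, with medians of 0.31, 0.42 and 0.07. The first counts became 13 and 1 with arrays at the same median, beside 34.9% and 18.9% of all genes. Phb2, a prohibitin of the inner membrane, rose in tumours by 0.85 against GNPC, and Timm50, a receptor of the inner membrane translocase, by 1.52 against DBS. Mfn2, which fuses mitochondria, fell in tumours by 1.03 and 1.29, and Tomm70a, an outer membrane import receptor, in GNPC by 0.69 against DBS.

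**Figure D5:**
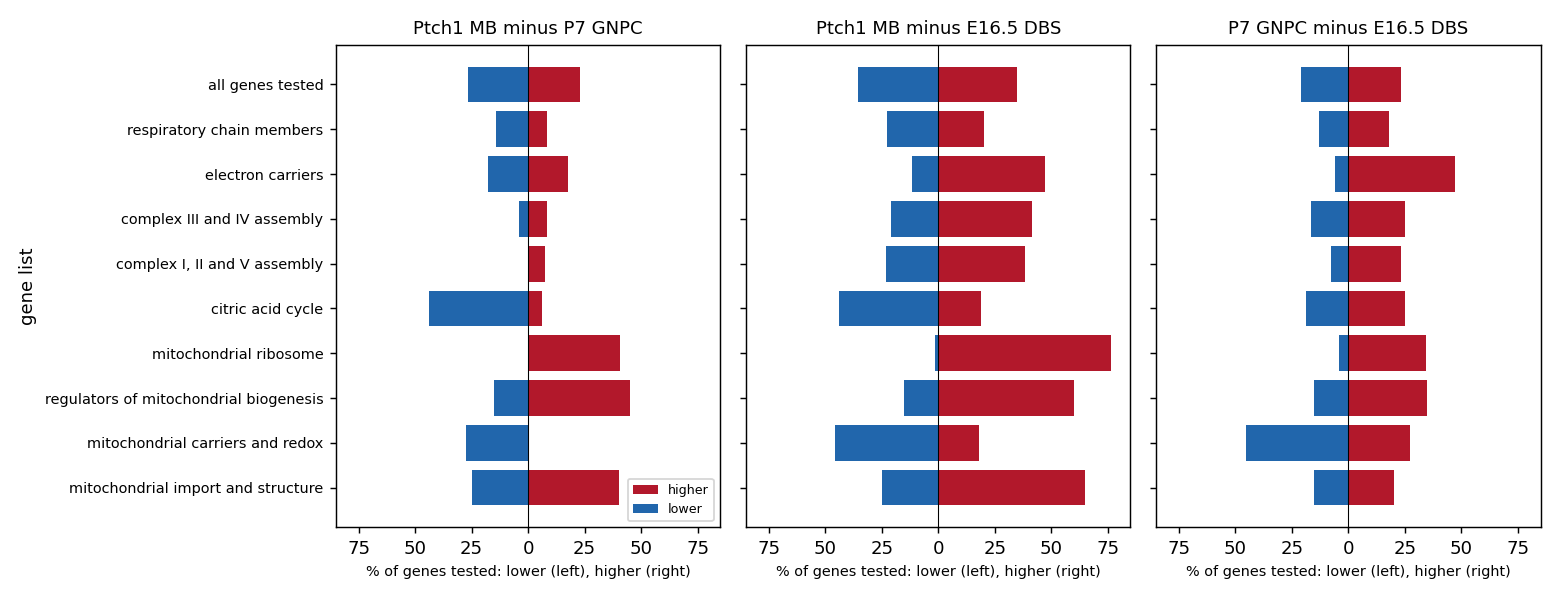
Share of the genes tested in each list that were called higher (right) or lower (left) at an adjusted p under 0.05, in percent, for each comparison, with all genes tested at the top. The respiratory chain members have shorter bars than all genes on both sides in each panel, and the mitochondrial ribosome has nearly all of its bar on the higher side.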

How the data were processed

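RNA was extracted with RNA STAT-60 and labelled by Affymetrix's protocol with a second amplification cycle, per the labels' protocols. The authors deposited intensities on a linear scale. The submitters' processing notes name MAS5 without a version, and each array's mean trimmed by 2% at each end is 500. The members, lists and tests were chosen with earlier results of these data known.

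Groups come from the labels' source names. No 2 arrays were identical. Values were tested as log2(intensity + 18), 18 being the 20th percentile of all values, which understates the fold of dim genes. Genes used probe sets with 1 symbol in the platform annotation, and all 90 members matched a reference gene table. In R 4.3.3, limma 3.58.1 fitted 1 mean per group to all 13 samples with a trend of variance on intensity (degrees of freedom 10 residual, 4.5 prior). The adjusted p is Benjamini-Hochberg over 12270 genes. Intervals are 95%. The procedure was tested on simulated data. On single probe sets, p was adjusted over all probe sets.

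Named members are those called at 2-fold, the called member with the largest rise and fall per complex and comparison, complex II and the isoform genes. Other lists give at most their largest rise and fall per comparison, with Ppargc1a, Tfam and the fall of Dlat against GNPC added. Counts of genes lower or higher in a list were also run under other scalings, on plain probe sets and without DBS 2, as alternatives chosen after seeing the data. Cell type markers were those of precursors, brainstem, Purkinje cells, neurons, astrocytes, oligodendrocytes, microglia, endothelium, meninges, muscle, blood and proliferation. A tumour group with a Ctnnb1 alteration was not analysed here.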

Additional observations from a re-analysis of the deposited data

How the results depend on the processing

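No paired analysis was possible because replicate numbers follow accession order only. In the order of tumours against GNPC, tumours against DBS and GNPC against DBS, 7, 17 and 15 members were higher and 12, 19 and 11 lower. A 2-fold minimum left 0, 4 and 2 higher and 0, 1 and 0 lower. With equal array medians, 17 members were higher and 2 lower between tumours and GNPC, 10 were lower between tumours and DBS, and 7 were higher and 18 lower between GNPC and DBS, with medians of 0.17, 0.05 and -0.13. Quantile normalisation gave 26 lower in the first comparison and 3 in the last, with medians of -0.18 and 0.08. Without a filter 6 were lower in the first. The mean of a gene's probe sets gave medians of 0.06 and 0.10 against DBS in tumours and GNPC, and 6 lower in the last comparison. Plain probe sets alone gave 3 higher in the first comparison, 11 lower in the middle one (median 0.09) and 2 lower in the last (median 0.25). Taking each probe set by itself, 11 were higher and 22 lower in the first, 37 and 31 in the middle one (median 0.04), and 27 higher in the last (median 0.08). Without an intensity trend 5 were lower in the first and 5 in the last, and fitting only the groups compared gave 23 lower in the first. Leaving out a sample of the groups compared at a time gave 3 to 10, 14 to 19 and 8 to 17 higher. The lower counts were 5 to 12, 17 to 25 and 4 to 11, and the medians -0.10 to -0.04, -0.12 to -0.04 and -0.07 to 0.05. DBS 2 enters the estimate of spread that all comparisons share, and without it more members were lower in the first comparison too. There complexes I, III, IV and V had 6, 2, 3 and 4 lower instead of 5, 0, 2 and 2, and the associated factors 2 instead of 1. All the other alternatives run, among them the pseudocounts 1 and 64, left these counts within 1.5 times.

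Of 1425 values of named members under alternatives, 1260 kept their direction and side of the threshold, 111 lost a call, 49 gained 1 and 5 reversed, all between GNPC and DBS. The reversed values were Cox6b1 with quantile normalisation (0.01) and on plain probe sets (0.03), Cox6a1 on the mean of its probe sets (0.03), and Cox7a2 (0.05) and Atp5k (0.06) on plain probe sets. The causes were not tested, beyond the fewer genes with plain probe sets. No batch term could be fitted. Dim members, such as Cox6b2, have few units above background, and 3 GNPC samples limit every comparison with that group.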

Other observations

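Other cell type markers differed between groups as follows, and their part in the member values was not tested. Microglia and macrophage markers summed to 5905.3 to 16702.3 intensity units in tumours, 5534 to 6682.4 in GNPC and 5278.8 to 5424.7 in DBS, and Itgam was below the array median in all samples. Astrocyte and Bergmann glia markers summed to 9807.2 to 19037.7, 27248.5 to 28910.7 and 10546.2 to 12404.4 in the same order, and oligodendrocyte markers to 8610.4 to 18789.8, 21351.6 to 39647.6 and 10507.7 to 16117.7. Endothelial markers summed to 1412.9 to 2689.5, 4715.8 to 5272.1 and 3120.2 to 4373.8, and meningeal markers to 1522.8 to 2515.6, 8650.6 to 10120.4 and 4600.9 to 7577.2. Muscle markers summed to 175 to 440.5, 298.5 to 436.3 and 616.4 to 2721.2, with Myh2 and Myh4 below the array median throughout. Blood markers summed to 7.4 to 109.8, 170.3 to 343.1 and 195.1 to 714.3.

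Some single probe sets of members differed by more than the brightest probe set of their gene. They were picked after their values were seen. The plain probe set of Uqcr10, a complex III subunit, averaged 130 ± 43 (SD, n = 6) in tumours, 41.5 ± 44.0 (n = 3) in GNPC and 31.4 ± 11.3 (n = 4) in DBS, while its brightest averaged 790, 795 and 857. The dimmer probe set of Ndufa10 averaged 52.4 ± 10.6 in tumours and 178 ± 34 in DBS, a log2 difference of -1.48, where the brighter one gave -0.46. The plain probe set of Uqcrb averaged 1608 ± 401 in tumours and 3109 ± 250 in GNPC, a log2 difference of -0.98 where its brightest gave -0.23.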
